A study of Rattus norvegicus with 287 samples.

Results

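Adipose tissue of obese Zucker Diabetic Fatty (ZDF) rats was compared after 3 days of peripheral focused ultrasound (pFUS) and after 3 days of control treatment. The members were 8 RNA-seq libraries, 4 labelled "pFUS 3-days AM only x1" (animals 33, 34, 35 and 36) and 4 labelled "Control 3-days" (animals 41, 42, 43 and 44), chosen by their labels for model, tissue and treatment from 287 libraries in the series. Per the labels the rats were males, the beam was aimed at the porta hepatis, and a stimulus lasted 3 minutes at 1.1 MHz, with 200 mV per pulse, 150 burst cycles and a burst period of 500 µs. Controls received a sham in which no energy was delivered, and rats of all groups were under isoflurane at 2 to 4% beforehand. A further 4 libraries, labelled "pFUS 3-days AM only x10" (animals 37, 38, 39 and 40), shared the fit and the controls. The labels state neither what x1 and x10 count nor the animals' ages, the adipose depot or the clock hour of collection. The ZDF rat is a model of obesity and diabetes that carries a defective leptin receptor, in all 3 groups alike. Each library is a different animal, so p-values measure the spread between rats.

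The molecular clock is a transcriptional loop that runs in adipocytes, hepatocytes and muscle fibres as it does in the brain. ARNTL (also called BMAL1) pairs with CLOCK or its relative NPAS2, and the pair binds E-box sequences to activate Per, Cry, Nr1d1, Nr1d2, Ciart, Dbp, Tef and Bhlhe41. PER and CRY proteins then repress that pair, while the nuclear receptors encoded by Nr1d1 and Nr1d2 repress Arntl and Npas2 through ROR elements, so the activators and their targets peak at different times of day. In adipose tissue the loop times lipid handling and hormone release, and glucocorticoids reset it.

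The sequences just before the start sites of 5 clock genes are shown because the pair of genes with the smallest p-values between pFUS x1 and control adipose tissue belong to this loop and the elements named above can be read in some of them. Each is the 250 bases before a gene's start in RefSeq, build GRCr8, written 5′ to 3′ on the gene's strand, with motif matches in capitals. Npas2 lies on chromosome 9 at 48959315-48959564 (+ strand), Arntl on chromosome 1 at 176766078-176766327 (+), Ciart on chromosome 2 at 186112247-186112496 (- strand), Per2 on chromosome 9 at 99496994-99497243 (-) and Tef on chromosome 7 at 115206577-115206826 (+).
Npas2: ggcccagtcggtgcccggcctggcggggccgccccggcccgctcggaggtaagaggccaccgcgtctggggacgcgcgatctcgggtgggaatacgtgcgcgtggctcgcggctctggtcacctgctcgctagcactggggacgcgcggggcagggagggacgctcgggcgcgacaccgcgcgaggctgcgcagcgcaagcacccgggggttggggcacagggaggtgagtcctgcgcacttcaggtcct
Arntl: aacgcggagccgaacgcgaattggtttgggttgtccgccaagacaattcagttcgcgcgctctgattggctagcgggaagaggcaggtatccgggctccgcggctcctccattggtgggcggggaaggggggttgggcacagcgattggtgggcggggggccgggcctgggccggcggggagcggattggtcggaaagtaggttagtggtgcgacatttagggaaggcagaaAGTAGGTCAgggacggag
Ciart: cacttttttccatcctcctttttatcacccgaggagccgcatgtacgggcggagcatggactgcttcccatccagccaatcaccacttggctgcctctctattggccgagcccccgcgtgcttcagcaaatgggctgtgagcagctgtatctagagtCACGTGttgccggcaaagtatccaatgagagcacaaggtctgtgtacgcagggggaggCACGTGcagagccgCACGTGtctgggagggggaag
Per2: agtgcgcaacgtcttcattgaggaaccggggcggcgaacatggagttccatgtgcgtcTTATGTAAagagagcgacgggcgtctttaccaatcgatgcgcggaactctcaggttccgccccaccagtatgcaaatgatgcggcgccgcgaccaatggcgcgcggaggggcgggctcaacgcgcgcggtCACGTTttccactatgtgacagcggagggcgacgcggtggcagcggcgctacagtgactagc
Tef: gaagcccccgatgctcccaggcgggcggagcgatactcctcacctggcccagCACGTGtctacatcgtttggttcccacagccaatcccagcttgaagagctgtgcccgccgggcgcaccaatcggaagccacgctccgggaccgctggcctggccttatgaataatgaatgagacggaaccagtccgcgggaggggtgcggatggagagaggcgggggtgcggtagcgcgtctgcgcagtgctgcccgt
The capitals mark a ROR element in Arntl (ANTAGGTCA, 18 bases before the start), 3 E-boxes in Ciart (CACGTG, 93, 35 and 21 bases before), an E-box in Tef (198 bases before), and in Per2 a variant E-box (CACGTT, 62 bases before) and a D-box (TTANGTAA, 192 bases before), the element of the DBP and TEF proteins. Npas2 held none of these letters in this window. Neither did Dbp, the other gene of the pair with the smallest p-values, whose window is not shown. The windows of Clock, Per1, Per3, Nr1d2, Rora and Nfil3, also not shown, held none either. The windows shown thus hold matches more often than those of the whole list. Both strands were searched, CACGTG reads the same on both, and no marked matches overlapped. Windows were found for 16 of the 19 clock genes listed, 18 windows in all since Clock and Nr1d1 have 2 start sites each. CACGTG was in 5 of the 18 windows (Ciart, Tef, Nr1d1, Bhlhe40 and Bhlhe41) against 5.59% of all 33469 windows, and CACGTT in 3 of 18 (Per2, Cry2 and Nr1d1) against 4.07%. The D-box was in 1 of 18 against 2.04%, and the ROR element in 1 of 18 against 0.568%. A match is a run of letters and was not tested as a binding site.

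All 12 libraries were adipose tissue by Adipoq, the adipocyte hormone. It had 3860, 3227, 4515 and 5218 CPM (counts scaled to TMM library sizes) in pFUS x1 libraries and 4572, 3672, 5491 and 4752 CPM in control libraries. Totals were 7228026 to 9211112 counts in pFUS x1, 6585911 to 7340545 in pFUS x10 and 5902198 to 8289773 in control libraries. In whole tissue, fewer cells of a type and less RNA per cell cannot be told apart. One library stood apart, pFUS x10 animal 37, with 123 CPM of Ucp1, the uncoupling protein of brown fat, which was at most 0.135 CPM in the other 11, and with the lowest Adipoq, 1828 CPM. It enters the comparison of pFUS x1 with control only through the shared dispersion, the scaling and the filter on low counts. Without it 13542 genes were tested in place of 13368. Values without it are given beside the counts it moves. Libraries of control animals 41 and 42 held more transcripts of striated muscle and liver than the other control libraries and those of pFUS x1. In pFUS x10 summed markers of liver cells were 835, 2164, 1078 and 691 CPM in animals 37 to 40. Those of striated muscle were 11.5 to 24.2 CPM there. Summed markers of striated muscle were 14.2 to 18.8 CPM in pFUS x1 and 125, 69.1, 21.4 and 16.0 CPM in control animals 41 to 44, and summed markers of liver cells were 418 to 759 CPM in pFUS x1 and 2406, 1597, 834 and 794 CPM in controls.

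Npas2 was the one gene of 13368 tested that passed an adjusted p of 0.05, and it fell with pFUS x1 (0.00748% of genes called, edgeR quasi-likelihood test with Benjamini-Hochberg adjustment). At an unadjusted p under 0.05 there were 519 genes (3.88%), 259 higher and 260 lower, and DESeq2 called 16. Without the pFUS x10 library 37 the test called 10 genes, 5 of them clock genes: Npas2 and Arntl fell, and Dbp, Tef, Per3, Abl1, Mlph, Sh2b2, Adamtsl2 and Timp3 rose. It called 0 without pFUS x1 animal 33, 34 or 36 or control animal 43, 2 without control 41 and 3 without control 44, and 0 without controls 41 and 42 together. The median log2 fold change over all genes was -0.015, with 6352 genes higher and 7016 lower. 

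**Figure D1:**
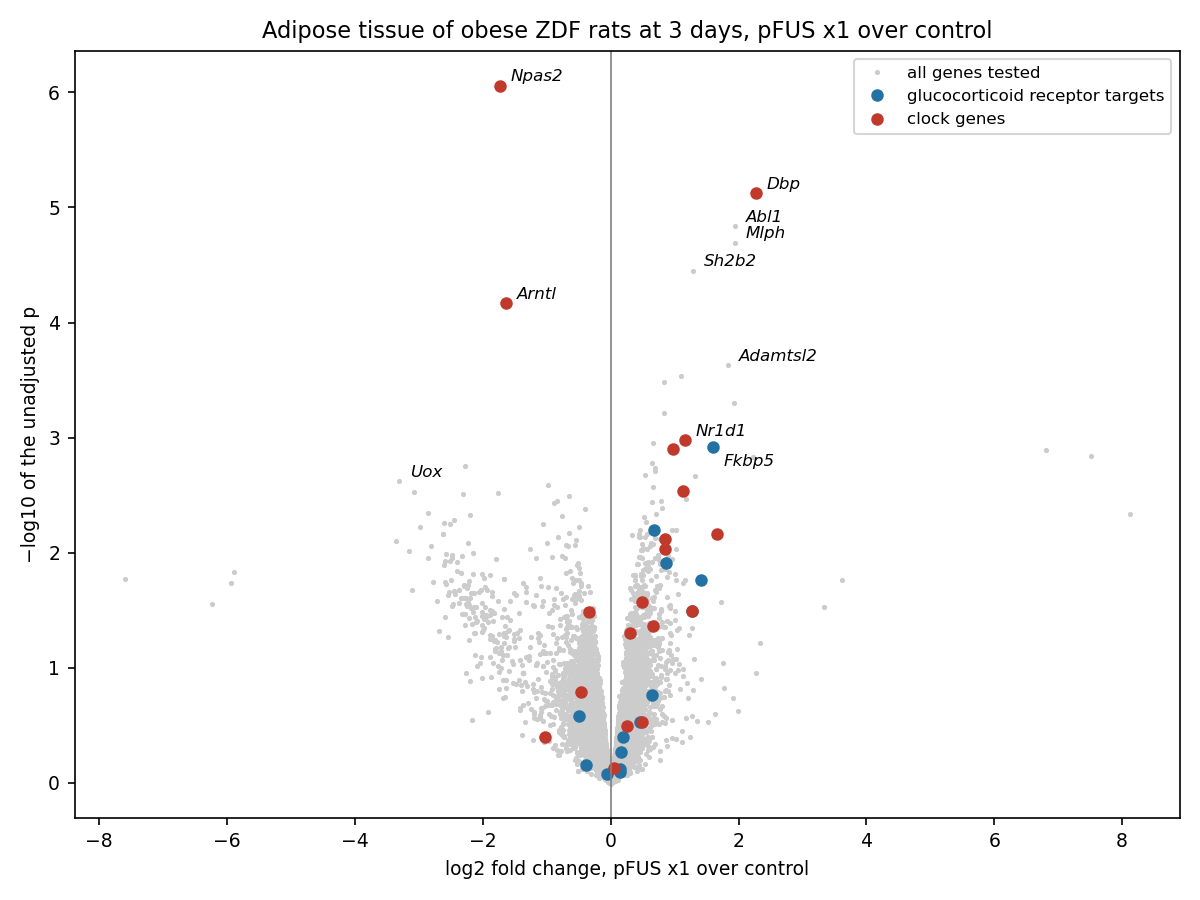
Log2 fold change of pFUS x1 over control (x axis) and −log10 of the unadjusted p (y axis) for the 13368 genes tested in adipose tissue, with clock genes in red and glucocorticoid receptor targets in blue. Npas2 (-1.73) and Dbp (2.28) have the smallest p-values, followed by Abl1, Mlph, Sh2b2 and Arntl.

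Among activators, Npas2 (ENSRNOG00000013408) had 5.41, 5.21, 6.05 and 3.99 CPM in pFUS x1 adipose tissue, against 21.8, 12.7, 18.4 and 15.8 CPM in controls. The highest pFUS x1 library lay below the lowest control. Its log2 fold change was -1.73 ± 0.20 (SE, adjusted p = 0.0117, edgeR), and it was past the threshold in 11 of 16 alternatives, with a highest adjusted p of 0.112. Arntl (ENSRNOG00000014448), the partner of NPAS2 and CLOCK, had 7.44, 11.9, 13.0 and 7.47 CPM in pFUS x1, against 35.9, 25.3, 35.3 and 27.8 CPM in controls. These groups did not overlap either, and the fold change of -1.64 ± 0.28 did not pass (adjusted p = 0.151, edgeR, and 0.0107 without pFUS x10 library 37). Clock had 126 to 152 CPM in pFUS x1 and 149 to 209 CPM in controls, groups that overlapped, with a log2 fold change of -0.34 ± 0.14 (adjusted p = 0.970, edgeR).

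The output factors of the loop lay on the other side. Dbp (ENSRNOG00000021027), a D-box activator, had 68.9, 53.4, 55.8 and 72.6 CPM in pFUS x1 and 5.76, 16.6, 9.90 and 19.9 CPM in controls. Every pFUS x1 library was above every control. Its log2 fold change, 2.28 ± 0.32, stood at the edge of the threshold (adjusted p = 0.0501, edgeR, and 0.0107 without pFUS x10 library 37). Tef, a second D-box activator, had 107, 85.1, 87.5 and 99.4 CPM in pFUS x1 and 45.1, 51.1, 50.0 and 65.0 CPM in controls, again without overlap (0.84 ± 0.28, adjusted p = 0.970, edgeR). Hlf, the third of that family, overlapped between the groups (0.48 ± 0.44), as did Nfil3, the D-box repressor, at 2.87 to 6.61 CPM in pFUS x1 and 5.34 to 8.71 CPM in controls (-0.46 ± 0.31).

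Repressors of the activator pair were higher in pFUS x1 adipose tissue, none of them past the threshold. Per3 had 116, 73.8, 78.9 and 102 CPM in pFUS x1 and 37.8, 54.2, 42.6 and 53.6 CPM in controls (0.98 ± 0.24), and Per2 had 87.4, 58.6, 46.0 and 61.7 CPM against 27.1, 45.9, 21.5 and 21.4 CPM in controls (1.13 ± 0.31). Neither gene overlapped between the groups, though the lowest pFUS x1 and highest control values of Per2 were nearly equal. Per1, which glucocorticoids also induce, ranged from 40.5 to 121 CPM in pFUS x1 and from 17.4 to 43.8 CPM in controls and overlapped (1.27 ± 0.52). Ciart, a further repressor, had 2.44, 1.30, 2.15 and 3.61 CPM in pFUS x1 and 0.402, 0.959, 0.651 and 0.965 CPM in controls, without overlap at a level of few reads (1.67 ± 0.52). Of the cryptochromes Cry2 did not overlap (0.30 ± 0.14) and Cry1 did (0.26 ± 0.25).

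Nr1d1, which encodes a repressor of Arntl that acts through ROR elements, had 91.1, 78.9, 114 and 106 CPM in pFUS x1. In controls it had 31.5, 46.8, 35.2 and 61.2 CPM. The groups were apart, with a log2 fold change of 1.16 ± 0.28 (adjusted p = 0.970, edgeR). Nr1d1 overlaps Thra on the opposite strand, and the sources used here do not say whether reads were counted by strand. Its relative Nr1d2 had 89.7 to 141 CPM in pFUS x1 and 70.6 to 91.6 CPM in controls, overlapping by 1 library (0.49 ± 0.20). Rora, an activator at ROR elements, had a log2 fold change of 0.06 ± 0.17. Bhlhe41 and Bhlhe40, E-box repressors, had 0.85 ± 0.27 and 0.66 ± 0.30, the first without overlap. The plot of clock gene levels shows 8 of these genes by library.

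**Figure D2:**
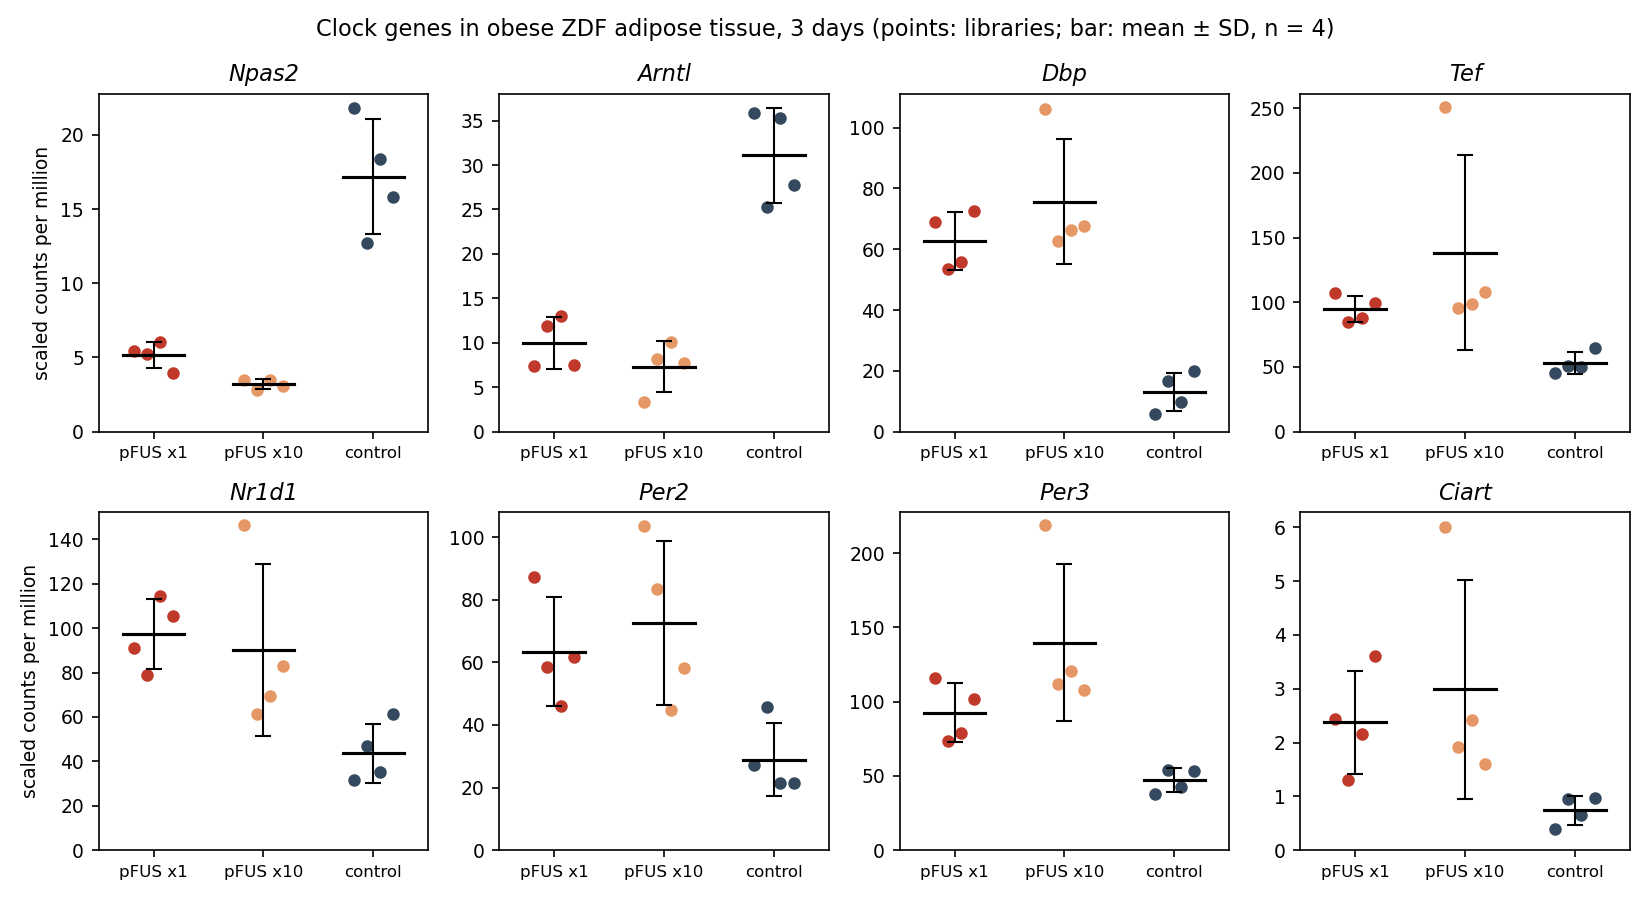
Scaled counts (CPM, y axis) of 8 clock genes in the 4 pFUS x1, 4 pFUS x10 and 4 control libraries of adipose tissue, each point a library and each bar the mean with its SD. Npas2 and Arntl are lower in both pFUS groups than in any control library, Dbp, Tef, Per3 and Ciart are higher in both, and the pFUS x10 library of animal 37 is the highest point for Dbp, Tef, Nr1d1, Per2, Per3 and Ciart.

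Counted over the list, 0 of 19 clock genes rose, 1 fell and 18 did not pass. At an unadjusted p under 0.05, 11 were higher and 3 lower, where 1.94% of all genes were higher and 1.94% lower. Libraries did not overlap for 8 that were higher in pFUS x1 (2.54% of all genes) and for 2 that were lower (2.28%), 10 in all where 4.82% of all genes had no overlap. The list's median log2 fold change was 0.494, and 0.429 to 0.738 in the alternatives. Without pFUS x10 library 37, 3 rose and 2 fell. Levels of these genes change with the time of day, and the labels give no hour of collection for any group. An effect of pFUS and a difference in that hour cannot be told apart here, and neither was tested.

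Both pFUS groups were set against the same 4 control libraries, so their values are given side by side and are not independent. For Npas2 the log2 fold change was -1.73 ± 0.20 with pFUS x1 and -2.42 ± 0.21 with pFUS x10, where it fell (adjusted p = 0.000456, edgeR). For Arntl it was -1.64 ± 0.28 and -2.08 ± 0.29 (adjusted p = 0.0369 with pFUS x10), and for Dbp 2.28 ± 0.32 and 2.55 ± 0.32 (adjusted p = 0.0164 with pFUS x10), all from edgeR. These 3 were the genes past the threshold of pFUS x10 against control (0.0224%), with 1275 genes (9.54%) at an unadjusted p under 0.05. Without library 37 the test called 5 genes for pFUS x10 against control, all of them clock genes: Npas2 and Arntl fell, and Dbp, Per3 (adjusted p = 0.0128, edgeR) and Tef (adjusted p = 0.0214, edgeR) rose. Between pFUS x1 and pFUS x10 directly, 0 of 13368 genes passed in edgeR, with 1438 at an unadjusted p under 0.05 and 19 called by DESeq2, and the smallest adjusted p of a clock gene was 0.443. For Npas2 the difference, pFUS x1 minus pFUS x10, was 0.68 ± 0.21.

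The same animals gave liver and muscle, in libraries made with a kit for mRNA where adipose tissue was prepared as total RNA. Npas2 had 5.12, 0.340, 12.7 and 3.80 CPM in pFUS x1 liver and 31.4, 17.3, 39.4 and 24.6 CPM in control liver (-2.39 ± 0.69, adjusted p = 0.185, edgeR). In muscle it had 1.98, 2.13, 2.40 and 1.35 CPM with pFUS x1 and 10.9, 6.15, 14.9 and 8.02 CPM in controls, and it fell (-2.33 ± 0.27, adjusted p = 0.00373, edgeR), as the one gene of 12259 called there (0.00816%). The groups were thus apart in all 3 tissues. Dbp had 54.4, 93.6, 33.7 and 104 CPM in pFUS x1 liver and 3.88, 19.2, 3.86 and 15.8 CPM in control liver. These groups were also apart (2.74 ± 0.61). In muscle the groups overlapped for Dbp, at 36.2 to 89.1 CPM with pFUS x1 and 13.2 to 41.6 CPM in controls (1.56 ± 0.37, adjusted p = 0.342, edgeR).

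The difference between tissues was tested with the animal as a block. For no clock gene did the pFUS x1 effect in adipose tissue differ from that in liver (smallest adjusted p = 0.301, for Per3, edgeR) or from that in muscle (smallest 0.0906, for Nr1d1, edgeR). Per3 had 0.98 ± 0.24 in adipose tissue and 2.80 ± 0.54 in liver, and Nr1d1 had 1.16 ± 0.28 in adipose tissue and -0.37 ± 0.23 in muscle. These p-values do not show that the effects were alike.

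**Figure D3:**
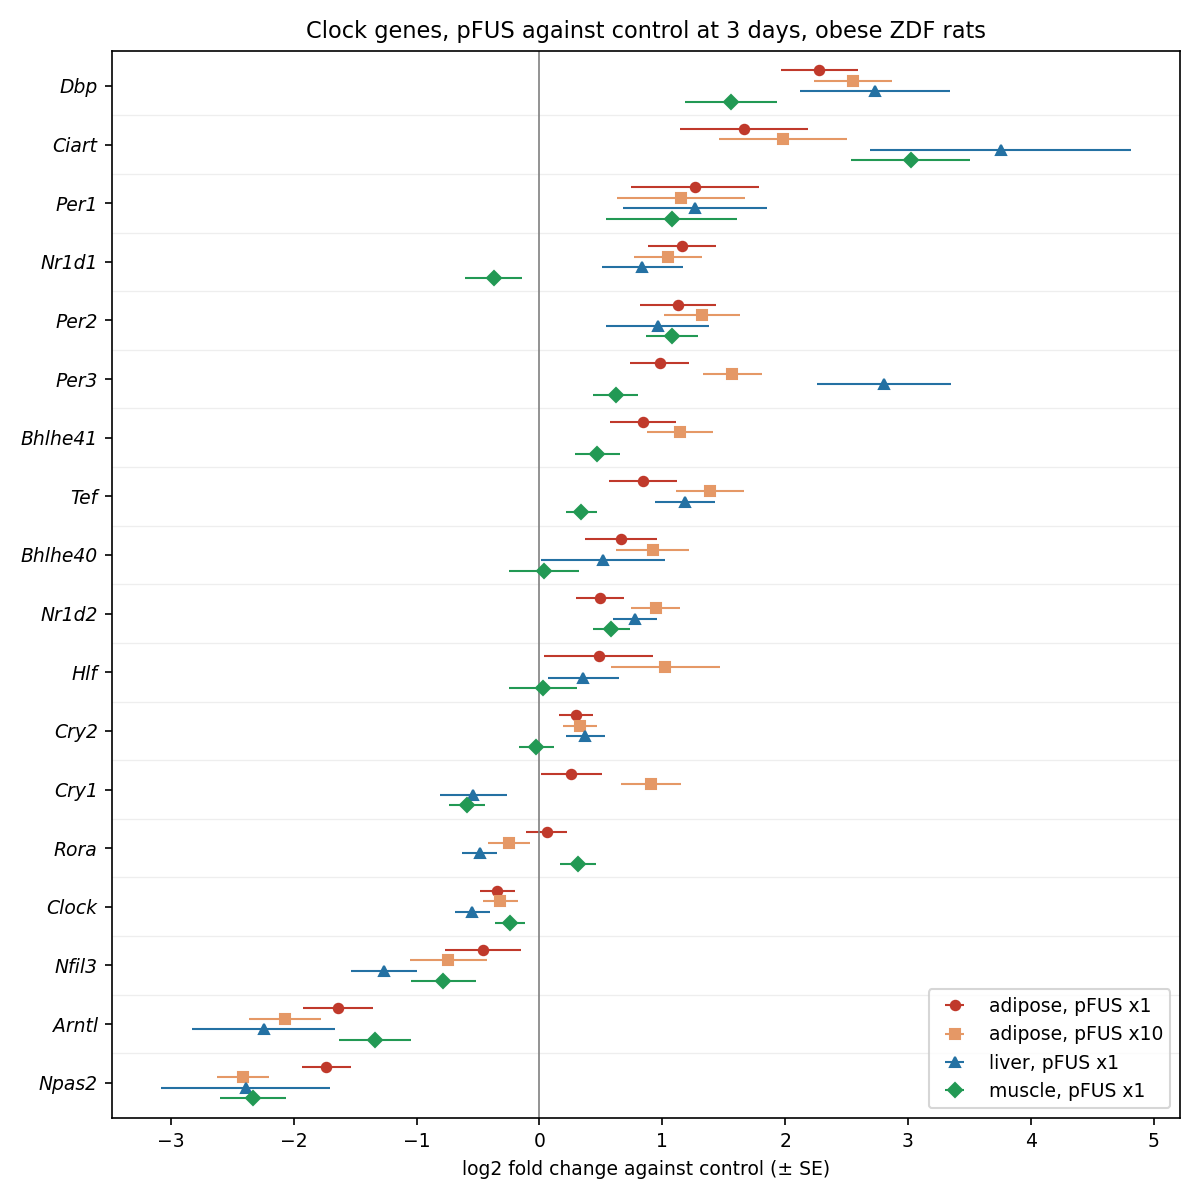
Log2 fold change against control with its SE (x axis) of 18 clock genes (y axis) for pFUS x1 and pFUS x10 in adipose tissue and for pFUS x1 in liver and muscle. Npas2 and Arntl lie left of zero and Dbp, Ciart, Per1, Per2 and Per3 right of it in all 4, Nr1d1 lies right of it except in muscle, and Bhlhe41 was not tested in liver.

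Of the genes that the naming rule gave, 6 were clock genes and 18 were not. Npas2 was taken for passing the threshold without overlap, and the others for their small unadjusted p. All 24 were without overlap, 20 higher and 4 lower, where 4.82% of all genes had no overlap. A choice by smallest p favours such genes, so this is no separate result. Abl1, a tyrosine kinase of cytoskeletal signalling, had 25.7, 15.1, 13.0 and 13.1 CPM in pFUS x1 and 3.21, 4.52, 4.43 and 5.21 CPM in controls (1.95 ± 0.29, adjusted p = 0.0645, edgeR). Mlph, which links vesicles to myosin, had 13.5, 6.91, 12.4 and 9.72 CPM in pFUS x1 and 3.75, 2.60, 1.95 and 2.70 CPM in controls (1.94 ± 0.30, adjusted p = 0.0675, edgeR). Sh2b2, an adaptor of the insulin receptor, had 46.5, 35.1, 44.8 and 39.5 CPM in pFUS x1 and 17.7, 14.4, 11.6 and 24.5 CPM in controls (1.29 ± 0.21, adjusted p = 0.0944, edgeR). All 3 missed the threshold here and were called without pFUS x10 library 37, by DESeq2 and in the fit of only the 2 groups compared.

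Adamtsl2, a secreted matrix protein, had 20.7, 10.5, 20.2 and 14.1 CPM in pFUS x1 and 3.88, 4.24, 6.12 and 3.86 CPM in controls (1.84 ± 0.37, adjusted p = 0.446, edgeR). Its pFUS x10 libraries lay with the controls, at 1.33 to 6.56 CPM. The difference of pFUS x1 from pFUS x10 was 1.81 ± 0.36 for Adamtsl2 and 1.57 ± 0.29 for Mlph, with an adjusted p of 0.443 for each (edgeR). Fam107a, an actin-associated protein, had 39.4 to 50.1 CPM in pFUS x1, 21.2 to 27.4 CPM in pFUS x10 and 21.1 to 38.0 CPM in controls.

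Slc9a3r2, a membrane scaffold, was at 56.9 to 62.4 CPM in pFUS x1 and 26.3 to 44.2 CPM in controls (0.84 ± 0.17). Mthfd1l, a mitochondrial folate enzyme, was at 6.51 to 8.22 CPM in pFUS x1 and 2.89 to 4.11 CPM in controls (1.10 ± 0.22). Fmo2, a flavin monooxygenase, was at 73.9 to 151 CPM in pFUS x1 and 17.4 to 61.6 CPM in controls (1.32 ± 0.35). Jade2, Mcf2l, Armc5, Adarb1, Hyal2 and Erf were higher by 0.54 to 0.83 on the log2 scale, with adjusted p-values of 0.738 to 0.970 (edgeR). Of the 2 lower genes outside the clock, Spon2, a secreted matrix protein, was at 17.8 to 41.8 CPM in pFUS x1 and 51.7 to 82.3 CPM in controls (-0.98 ± 0.26). Uox, the urate oxidase of liver peroxisomes, was at 0 to 1.25 CPM in pFUS x1 and 2.74 to 16.9 CPM in controls, highest in control animal 41, where liver markers also summed highest. The part of liver transcripts in its difference was not tested.

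**Figure D4:**
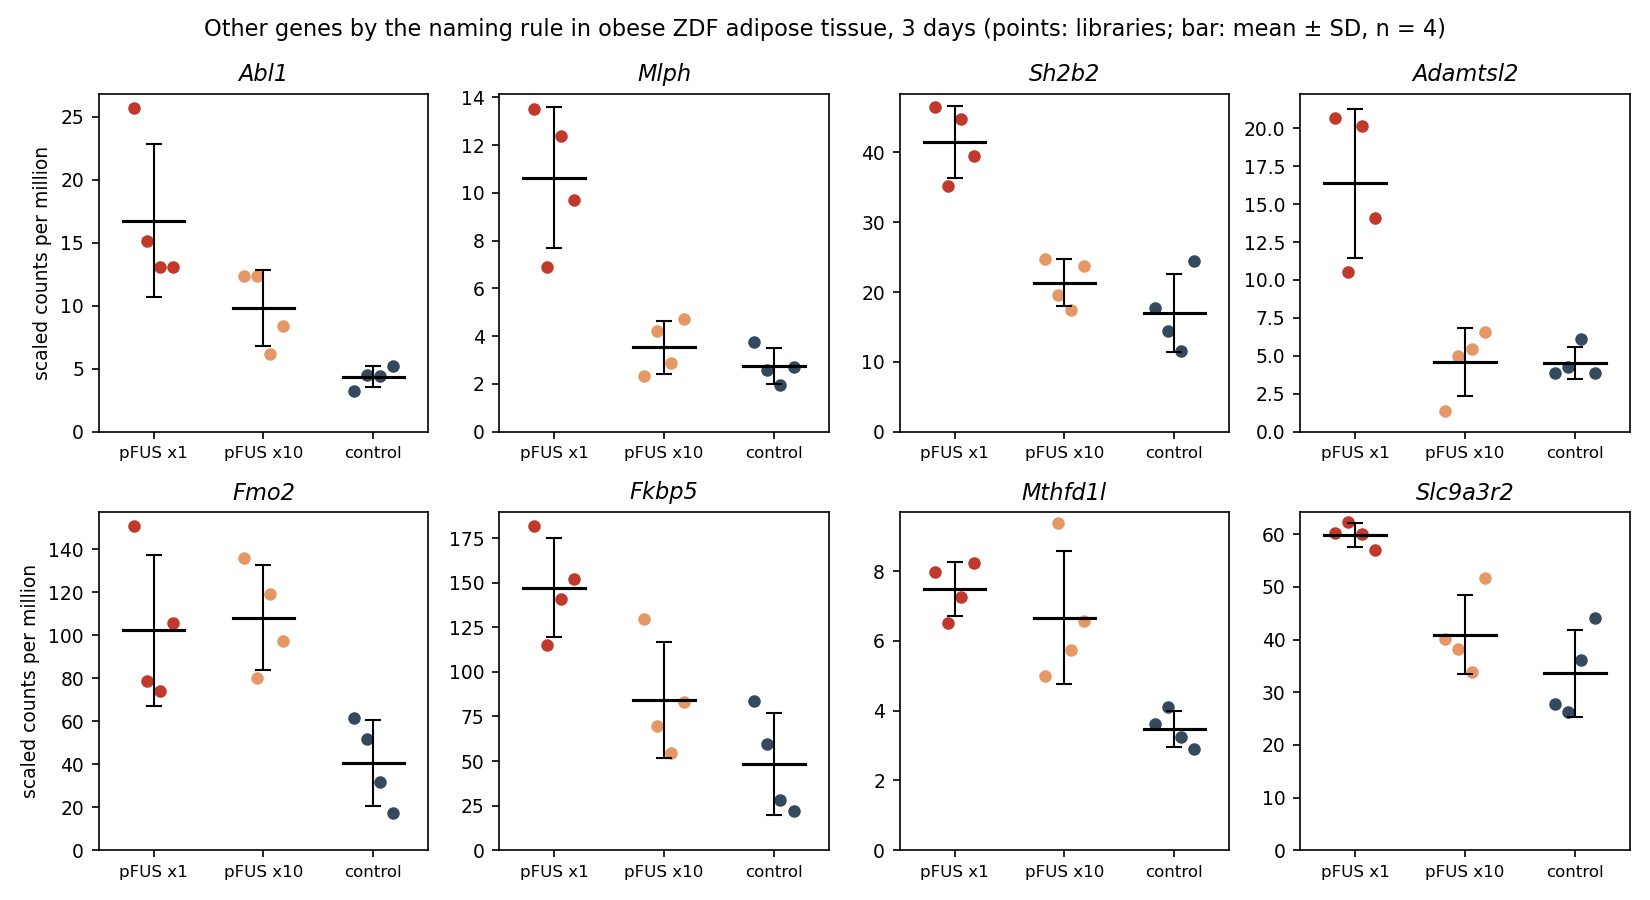
Scaled counts (CPM, y axis) of 8 genes given by the naming rule in pFUS x1, pFUS x10 and control libraries of adipose tissue, each point a library and each bar the mean with its SD. Mlph, Sh2b2 and Adamtsl2 in pFUS x10 lie among or near the controls, and Mthfd1l in pFUS x10 lies above them.

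Glucocorticoid receptor targets came next to the clock among the pathway lists by the share of members at an unadjusted p under 0.05. Of 14 tested 0 passed. At an unadjusted p under 0.05, 5 were higher and 0 lower, where 1.94% of all genes were higher and 1.94% lower. Without overlap 3 were higher (2.54% of all genes), and the median log2 fold change was 0.319. Fkbp5, a co-chaperone that feeds back on that receptor, had 182, 115, 141 and 152 CPM in pFUS x1 and 83.5, 59.4, 27.9 and 22.2 CPM in controls, without overlap (1.61 ± 0.39, adjusted p = 0.970, edgeR). In liver of the same animals, where 75 of 11809 genes were called (0.635%), Fkbp5 rose (1.52 ± 0.18, adjusted p = 0.000927, edgeR). In muscle Fkbp5 did not pass (0.53 ± 0.37, adjusted p = 0.636, edgeR). Tsc22d3, which encodes the glucocorticoid-induced leucine zipper, overlapped at 197 to 317 CPM in pFUS x1 and 112 to 222 CPM in controls (0.68 ± 0.21), and Zbtb16 at 73.2 to 166 CPM in pFUS x1 and 19.8 to 77.4 CPM in controls (1.41 ± 0.51). In liver neither Tsc22d3 nor Zbtb16 passed (0.31 ± 0.45 and 1.00 ± 0.78). Klf9 and Klf15 were without overlap in adipose tissue (0.87 ± 0.30 and 0.64 ± 0.45), and Per1 belongs to this list as well as to the clock. Without controls 41 and 42, the control libraries in which Fkbp5 and Zbtb16 were highest, the list's median was 0.884.

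Markers of the adipocyte itself did not move together. Of 20 tested 0 passed, 10 were higher and 10 lower, 0 were without overlap, and the median was 0.041, or -0.094 without controls 41 and 42. Lep, the hormone whose receptor is defective in this strain, had 2876, 3771, 5108 and 2983 CPM in pFUS x1 and 3204, 3008, 3119 and 4343 CPM in controls (0.11 ± 0.31), with groups that overlapped. Of 21 lipogenesis genes 0 passed and 18 were higher, with a median of 0.167 that was -0.134 without controls 41 and 42. Lpin1, a phosphatidate phosphatase, was the one without overlap (2.54% of all genes were higher without it), at 239, 239, 207 and 168 CPM in pFUS x1 and 130, 145, 111 and 156 CPM in controls (0.66 ± 0.21). Of 22 lipolysis and droplet genes 0 passed, with 11 higher and 11 lower.

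Cholesterol synthesis genes were lower as a group in count, with 0 of 22 passing, 19 lower and 5 without overlap (2.28% of all genes), and a median of -0.265, or -0.432 without controls 41 and 42. Hmgcs1, an early enzyme of the pathway, had 139, 139, 140 and 148 CPM in pFUS x1 and 166, 159, 262 and 163 CPM in controls (-0.41 ± 0.24). It was without overlap, as were Idi1, Sqle and Msmo1. Of 23 fatty acid oxidation genes 0 passed and 20 were lower (median -0.119), and of 23 oxidative phosphorylation genes 0 passed and 20 were lower (median -0.139), where 47.5% of all genes were higher.

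Markers of other cells gave no call. Of 17 macrophage markers 0 passed, with 12 lower and a median of -0.066, or 0.074 without controls 41 and 42, and of 24 extracellular matrix genes 0 passed, with 18 higher and a median of 0.121, or -0.061 without controls 41 and 42. All 7 red cell markers were higher (median 0.383) and 0 passed. Their sum was 8602 CPM in pFUS x1 animal 36, 2964 to 3926 CPM in the other 3 pFUS x1 libraries and 2669 to 4423 CPM in controls, and the median was -0.069 without animal 36. All 9 liver cell markers were lower (median -2.118, or -0.560 without controls 41 and 42), as were the 5 striated muscle markers tested (median -1.669, or -0.080) and the 5 kidney markers (median -2.013, or -1.132), and 0 passed. Alb, the plasma albumin of hepatocytes, had 160, 161, 8.34 and 193 CPM in pFUS x1 and 1300, 674, 268 and 222 CPM in controls. All 10 mesothelium markers were lower (median -0.440), and the median was 0.783 without controls 41 and 42, where control animal 42 alone had held a sum of 510 CPM, against 79.9 to 138 CPM in the other 3 controls and 101 to 230 CPM in pFUS x1.

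**Figure D5:**
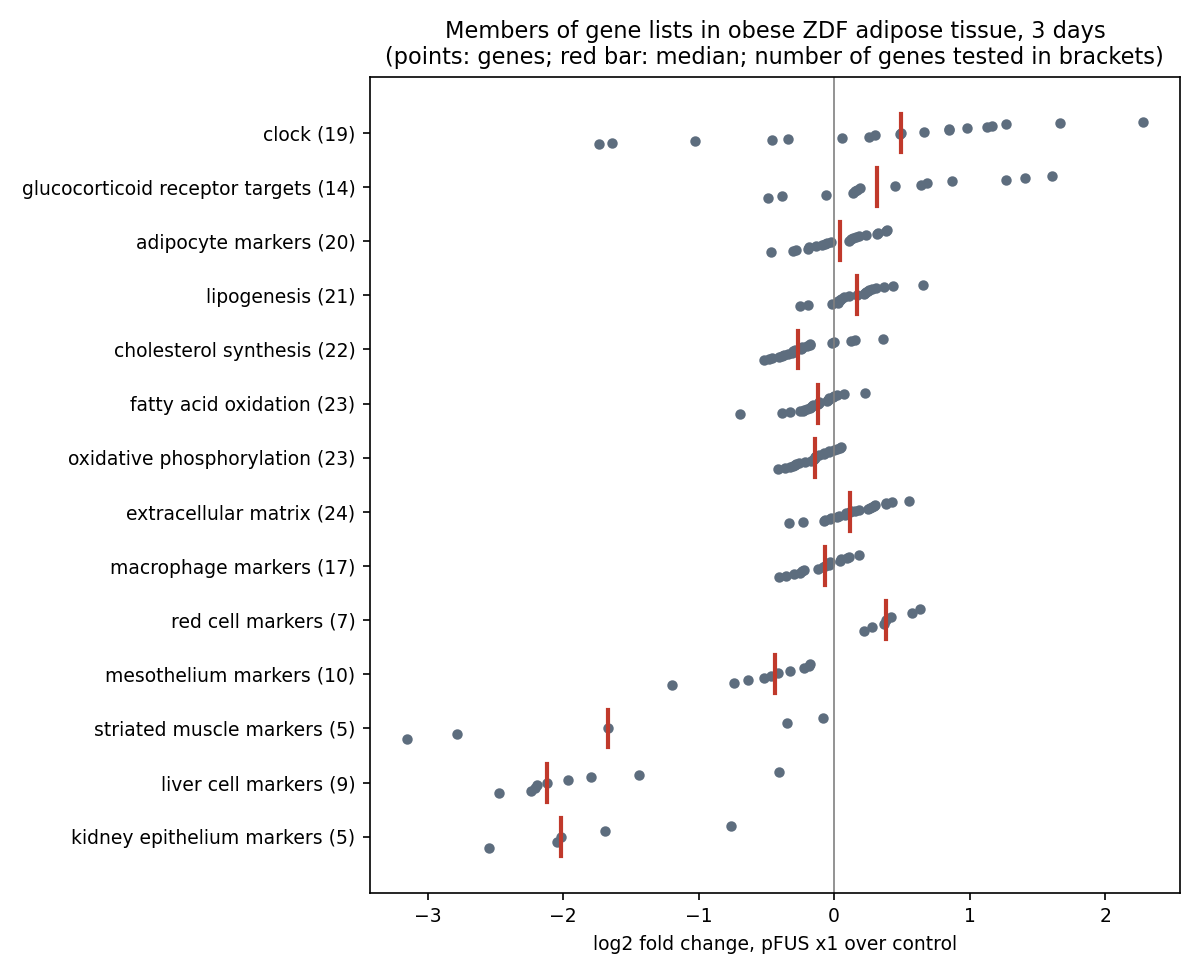
Log2 fold change of pFUS x1 over control (x axis) of every tested member of 14 gene lists (y axis, number tested in brackets), with the median as a red bar. The clock list spans -1.73 to 2.28, adipocyte markers lie between -0.47 and 0.39, and liver, muscle and kidney markers lie below zero.

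Stress response lists gave no call. Of 20 immediate early genes 0 passed, with a median of 0.101, or -0.062 without pFUS x1 animal 33, and Junb, a subunit of the AP-1 factor, was higher at 21.1 to 26.9 CPM in pFUS x1 and 13.5 to 22.0 CPM in controls (0.55 ± 0.23). Heat shock genes were 3 higher and 10 lower of 13, with 0 passing, and interferon-stimulated genes 7 higher and 16 lower of 23, with 0 passing. Cxcl9, an interferon-induced chemokine, had 11.2, 12.9, 13.6 and 11.2 CPM in pFUS x1 and 25.0, 19.3, 17.5 and 28.6 CPM in controls, without overlap (-0.88 ± 0.35, adjusted p = 0.970, edgeR). Of 12 mechanically gated and other ion channel genes 0 passed (median 0.031), with Lrrc8a, a volume-regulated anion channel subunit, at 0.41 ± 0.15.

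Over all genes, the pFUS x1 effect in adipose tissue differed from that in liver for 7 of 13946 (0.0502%, edgeR with the animal as a block) and from that in muscle for 0 of 13878, with 2246 at an unadjusted p under 0.05 and 141 called by DESeq2. The 7 were read out after their values were seen, and none passed in adipose tissue alone. In liver alone 75 of 11809 genes passed (0.635%, edgeR). Gpam, the acyltransferase that begins triglyceride synthesis, had 0.11 ± 0.20 in adipose tissue and fell in liver (-1.20 ± 0.18), a difference of 1.40 ± 0.22 (adjusted p = 0.0471, edgeR). Atp2b2, a plasma membrane calcium pump, had 0.30 ± 0.48 in adipose tissue and fell in liver (-1.63 ± 0.22, difference 1.99 ± 0.26, adjusted p = 0.0282, edgeR). The count was 0 without animal 34, 36, 42 or 43, 1 without animal 41, 2 without animal 35 and 40 without control animal 44.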

How the data were processed

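RNA of adipose tissue was sequenced from 4 pFUS x1, 4 pFUS x10 and 4 control obese ZDF rats, with a stranded total RNA kit per the labels' protocols (a stranded mRNA kit for liver and muscle). The submitters' processing notes name STAR 2.5.3a, RSEM and the build Rnor_6.0, and the release of the annotation was not found in the sources used here. The authors deposited unnormalized expected counts for 32623 genes, which are whole numbers in the file. A second deposited table, of isoforms, was not used. Total counts were 5902198 to 9211112 per adipose library. No 2 libraries were alike: among 18 pairs of replicates 0 held identical counts, and chi-square over its degrees of freedom was at least 13.61.

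Counts were fitted with edgeR 4.0.16 (R 4.3.3), with TMM factors, filterByExpr at a minimum count of 10 and a robust quasi-likelihood test over the 12 libraries of the 3 groups, which share one dispersion. Genes were called at a Benjamini-Hochberg adjusted p under 0.05. The SE was taken as the size of the log2 fold change divided by the root of its F statistic. CPM are counts over TMM-scaled library sizes. They are not divided by gene length, so levels of different genes were not compared. Effects in adipose tissue minus those in liver or muscle were tested in 16 libraries with the animal as a block, since the labels give the same number to the tissues of 1 animal. Deviations of tissues of an animal correlated at -0.0908 to 0.0938 with liver and -0.0665 to 0.226 with muscle.

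The libraries, the 39 gene lists and the rule for named genes were chosen with earlier results of these data known. The rule took genes with a mean of at least 5 CPM in 1 group, first those past the threshold without overlap. Genes were then added by smallest p to 24, whether or not their groups overlapped. Up to 6 members of a list were also taken by smallest p. Other clock genes, Timp3 and the genes that differed between tissues were named after their values were seen. Lists are described by counts and medians. Values of a few genes that the rule gave are not reported here. The alternatives tried were RLE factors, DESeq2 1.42.0, all genes unfiltered, no RNAs lacking a poly(A) tail, only the 2 groups compared, 24 libraries with the 4-week groups, no block and leaving out each library. Leaving out pFUS x10 library 37, or controls 41 and 42, was chosen after seeing the data. Scripts were tested on simulated data. Promoters are RefSeq's (GRCr8), matched by symbol or synonym. Python 3.11.15, pandas 2.3.3, numpy 2.4.6 and matplotlib 3.10.9 were used.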

Additional observations from a re-analysis of the deposited data

Results flagged for a closer look

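Values far from the others of their group were looked for by Dixon's criterion for 4 libraries, and chance alone flags about 1 in 20 groups. At most 166 groups of 4 libraries were searched, pFUS x1 or control, and 9 were flagged, near the share that chance alone flags. The groups searched came from genes looked up for the text, not all of which it names. Groups with every library below 1 CPM were passed over. In pFUS x1 adipose tissue Abl1 was at 25.7 CPM in animal 33, against 13.0 to 15.1 CPM in the others. Hmgcs1 was at 148 CPM in animal 36, against 139 to 140 CPM, and Fabp3 at 18.3 CPM there, against 9.81 to 11.1 CPM. In control adipose tissue Lep was at 4343 CPM and Hlf at 5.21 CPM in animal 44, against 3008 to 3204 CPM and 1.74 to 1.82 CPM in the other 3. Adamtsl2 was at 6.12 CPM and Hmgcs1 at 262 CPM in control animal 43, against 3.86 to 4.24 CPM and 159 to 166 CPM. Umod, a kidney protein, was at 1.35 CPM in pFUS x1 animal 33, against 0 to 0.200 CPM, and at 0 CPM in control animal 44, against 1.69 to 1.78 CPM, all levels of few reads.

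Effects of pFUS x1 that differed between adipose tissue and liver by the test of the difference itself (edgeR with the animal as a block) were higher in adipose tissue for 6 genes and lower for 1, which is not reported here. The 6 differences were 1.99 for Atp2b2, 2.30 for Tmem252, 1.40 for Gpam, 1.16 for Lims2, 1.82 for Rnf125 and 8.05 for LOC103693776, as log2 differences of adipose tissue minus liver. Lims2, a focal adhesion adaptor, had 0.73 ± 0.25 in adipose tissue and -0.37 ± 0.13 in liver, and passed in neither. Tmem252 and Rnf125, a ubiquitin ligase, had 0.40 ± 0.21 and -0.15 ± 0.25 in adipose tissue and fell in liver (-1.76 ± 0.31 and -1.95 ± 0.34). LOC103693776 was at 3.52, 3.40, 4.03 and 1.25 CPM in pFUS x1 adipose tissue and at 0 CPM in every control of that tissue, and at 3.02, 1.95, 0.959 and 1.58 CPM in pFUS x1 liver and 0, 3.60, 4.39 and 4.19 CPM in control liver. Its fitted difference depends on the prior count, since a whole group is at 0.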

How the results depend on the processing

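The count of genes past the threshold for pFUS x1 against control, 1, was also 1 with RLE factors. It was 2 without RNAs lacking a poly(A) tail, 3 with the 24 libraries, 5 without the filter, 7 with only the groups compared, 16 with DESeq2, 0 to 3 when 1 library was left out, 10 without pFUS x10 library 37 and 0 without controls 41 and 42. List members past it, 1, were 2 without the filter or those RNAs, 3 with the groups compared or the 24 libraries, 6 with DESeq2, 0 to 2 when 1 library was left out, 5 without library 37 and 0 without controls 41 and 42. The cause was not tested. For pFUS x1 against pFUS x10 DESeq2 called 19. Log2 fold changes that turned round, none called, were Lep (-0.017), Dgat2 (-0.055), Acta1 (0.150) and Gpam (-0.157) without controls 41 and 42, and Lep without pFUS x1 animal 35, where its range over libraries left out 1 at a time was -0.083 to 0.259. The 7 genes whose effect differed from liver with the replicate block were 17 with no replicate block and 40 with DESeq2, and 0 to 40 when 1 animal was left out. For muscle the count of 0 was 0 with no replicate block, 141 with DESeq2 and 0 to 1 when 1 animal was left out. No paired analysis was possible because pFUS x1 and control rats share no animal number. With 4 libraries a group and 5902198 to 9211112 counts each, genes at a few CPM such as Ciart rest on few reads.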
